A study of Mus musculus with 2 samples.

Results

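The genes described here encode the subunits of the mitochondrial respiratory chain and of ATP synthase, in a genome-wide siRNA screen of ANSO4E, a mouse neural stem cell line. Members were the genes whose symbol begins with Nduf, Uqcr, Atp5 or with Cox4 to Cox8, together with Cyc1 and the Sdha, Sdhb, Sdhc and Sdhd genes, and 91 of the 18193 genes on the array with a probe set of 1 gene symbol met this rule. They comprised 36 complex I subunits and relatives, 8 complex I assembly factors (the Ndufaf genes), 4 genes of complex II, 9 of complex III, 17 of complex IV and 17 of complex V. The rule itself refers to gene symbols and to no measured value.

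Both cultures carried the GeneNet mouse 40K lentiviral siRNA library and were grown with EGF and bFGF at 20 ng/ml each. The line comes from a transgenic animal, for which the labels give C57BL/6JxSJL/JF1 oocytes and BDF1 sperm, and it stands for 1 line of cells and not for neural tissue. The reference control was left without MNNG (N-methyl-N′-nitro-N-nitrosoguanidine, an agent that methylates DNA). The survivors outlived 500 µM MNNG given for 15 min, after which the study expanded them and treated them again. Library inserts were recovered from each culture and read on 1 Affymetrix Mouse Genome array per condition, so that no difference below has a replicate check, an error or a p-value.

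A signal in this screen reports how abundant the siRNA inserts matching a probe set were in the cell population, and it is not read here as the expression of the gene. An insert that was lower in the survivors belonged to cells that were rarer after selection, and one that was higher to cells that were more common, as far as the probe set reads that insert. Respiratory complexes I and II pass electrons from NADH and succinate to coenzyme Q, complex III passes them on to cytochrome c, and complex IV passes them to oxygen. Complexes I, III and IV pump protons across the inner membrane of the mitochondrion, and complex V, ATP synthase, uses the gradient to make ATP. Alkylating agents such as MNNG activate the poly(ADP-ribose) polymerase PARP1, which consumes NAD, and energy failure and the release of mitochondrial proteins belong to the death that follows.

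The values are log2 signals as the authors deposited them, and each difference is survivors minus reference control. A gene with several probe sets is represented by the one whose mean over both arrays was highest. Where a pair of values is given, the reference control comes first and the survivors second. Most genes lay at a low common level, with medians of 0.85 and 0.90. The arrays were not on an equal footing: the 99th percentile over genes was 5.21 and 3.14, and all 18 hybridization controls, which are added in fixed amounts, were higher on the survivors' array, by a median of 2.77. The differences of these controls ranged widely, from 0.0840 to 3.86. Setting the controls equal at their median lowers every difference by 2.77, so directions below hold on the deposited scale.

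A small number of subunits were bright in the reference control and much dimmer in the survivors, and none showed a gain of that size. On the deposited scale 7 of the 91 members (7.69%) had a decrease of more than 2.5, a ratio of 5.66, against 1.73% of all genes. Higher by as much were 0 members, against 0.253% of all genes. Past a smaller difference of 1, a ratio of 2, 11 members were lower (12.1%) and 6 were higher (6.59%), against 5.45% and 4.78% of all genes. The median difference of the members was 0.00, as was that of all genes, with 44 members higher (48.4%), 40 lower (44.0%) and 7 equal, against 43.5% higher and 38.1% lower over all genes. The counts of higher and lower genes given below for each complex and list are to be read beside these shares, since most of them are made up of small differences at the low common level. No test of these shares was made.

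**Figure D1:**
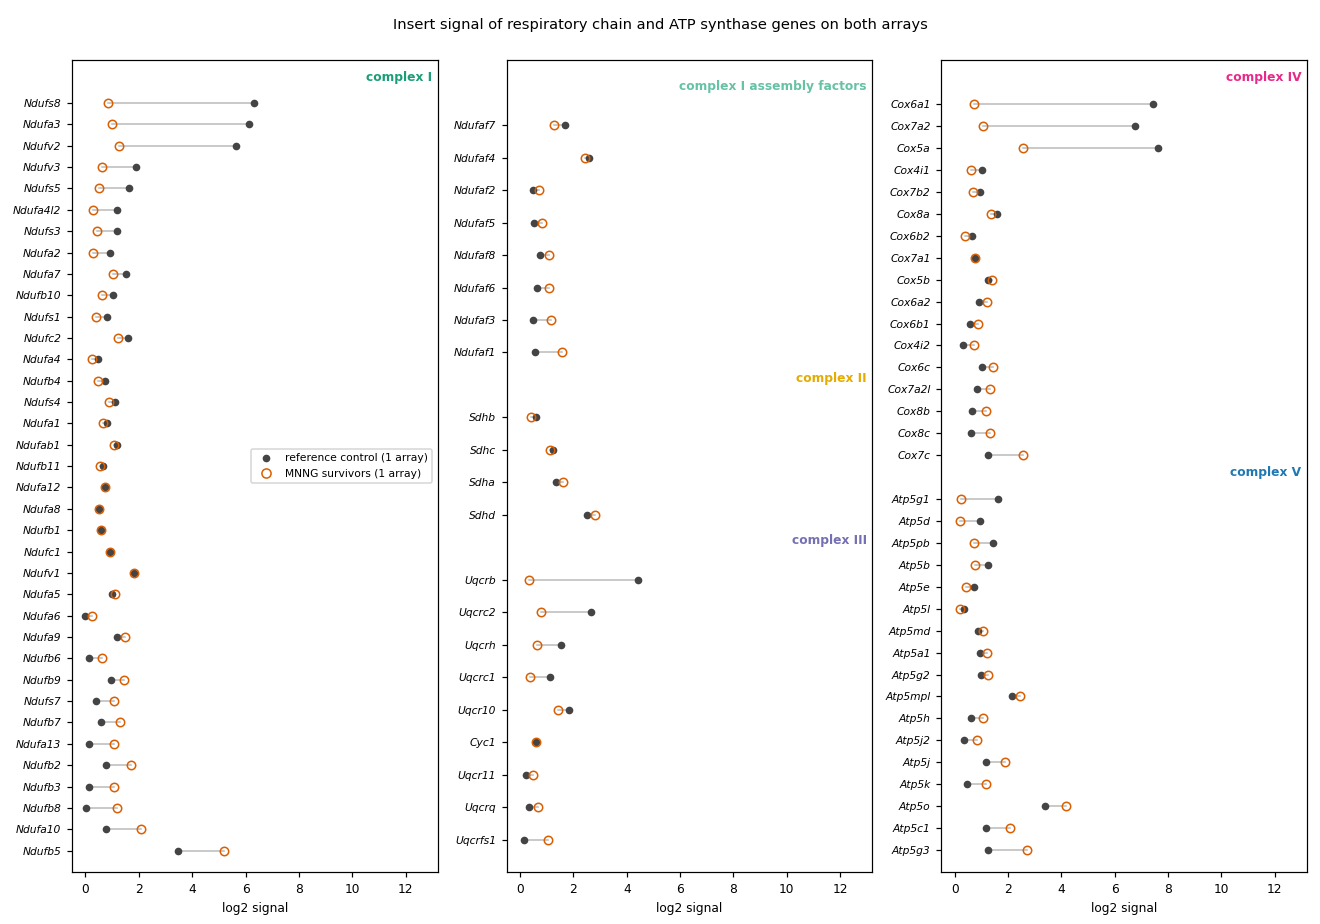
Log2 signal (horizontal axes) of each of the 91 genes (vertical axes), grouped by complex and ordered by difference, at the probe set of highest mean. Filled points are the reference control and open points the MNNG survivors, 1 array each; 7 genes run from above 4 in the reference control to below 3 in the survivors, and most other pairs lie below 2 on both arrays.

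Complex IV, cytochrome c oxidase, held 3 of the 7 large decreases, including both of the largest, in nuclear-encoded subunits that surround its catalytic core. Cox6a1, the form of subunit VIa found in most tissues, had a log2 signal of 7.44 on the reference control array, against 0.72 on that of the survivors. This difference of -6.72, a 105-fold lower signal, was the 35th largest decrease among all genes. Cox5a, a subunit on the matrix side of the complex, had 7.61 and 2.56, a difference of -5.05, and it was the brightest member in the reference control and the only one of the 7 whose survivors' signal stayed above 2. Cox7a2, the widely expressed form of subunit VIIa, had 6.74 and 1.07, a difference of -5.68. In the reference control these genes ranked 41st, 38th and 72nd among all genes.

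The muscle and testis forms of the same subunits, and the remaining complex IV members, gave no decrease past 1. Cox6a2, the heart and muscle form of subunit VIa, had 0.92 and 1.21, and Cox7a1, the muscle form of VIIa, had 0.78 on both. Cox7a2l, which takes part in joining complexes III and IV, had 0.82 and 1.31. The other probe sets of Cox6a1 and Cox7a2 were as dim, at 0.73 and 0.48 for the first and 0.60 on both arrays for the second. Subunit IV gave 1.03 and 0.60 for Cox4i1 and 0.30 and 0.73 for Cox4i2, a form linked to lung and low oxygen. Subunit VIb gave 0.59 and 0.88 for Cox6b1 and 0.64 and 0.39 for the testis form Cox6b2. For subunit VIII, Cox8a had 1.60 and 1.35, Cox8b had 0.66 and 1.18 and Cox8c had 0.63 and 1.33. Cox7c, a small membrane subunit, was the only member of complex IV higher by more than 1 at its chosen probe set, at 1.26 and 2.57, but its other probe set had 0.98 and 0.23. Another probe set of Cox8a, in turn, was higher by 1.30, at 0.28 and 1.59. The last of the group, Cox5b, Cox6c and Cox7b2, differed by 0.14, 0.43 and -0.25. The 17 complex IV genes divided into 9 higher, 7 lower and 1 equal, at a median of 0.14.

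Complex I, NADH dehydrogenase, held 3 of the 7 large decreases, and 2 of these were in its catalytic core. Ndufs8, a core subunit that carries iron-sulfur clusters on the way to coenzyme Q, had 6.33 and 0.85, a difference of -5.48. Ndufv2, a core subunit of the module that takes electrons from NADH, had 5.63 and 1.24, a difference of -4.40. Ndufa3, an accessory subunit of the membrane arm, had 6.13 and 0.995, a difference of -5.14. These genes ranked 93rd, 144th and 106th on the reference control array, and all were below 2 in the survivors.

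The other core subunits of complex I were dim on both arrays. Ndufs1, the largest core subunit, had 0.80 and 0.41, and Ndufs3 had 1.19 and 0.45. Ndufv1, the flavin-bearing partner of Ndufv2, had the same signal of 1.81 on both arrays. Ndufs7, which lies next to Ndufs8 near the coenzyme Q site, had 0.39 and 1.08. This difference was opposite in direction to that of Ndufs8 at its chosen probe set. Over its 6 probe sets, Ndufs8 ranged from -5.48 to 0.49. Of the 6 core genes measured, 4 were lower, 1 was higher and 1 was equal, with a median difference of -0.57.

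Among the 30 accessory subunits and relatives of complex I, increases (12), decreases (14) and equal values (4) balanced at a median of 0.00. Ndufb5, a subunit of the membrane arm, was the brightest member in the survivors, at 3.47 and 5.19. Its difference of 1.72 was the highest of all members, and its other probe set moved the same way, from 0.0845 to 1.39. Ndufa10 had 0.77 and 2.08, with 0.36 and 1.28 at its other probe set. Ndufb5 and Ndufa10 were thus higher by over 0.9 at every probe set on the deposited scale. At their chosen probe sets they were lower, by -1.05 and -1.46, once the hybridization controls were set equal at their median. Ndufb8 had 0.0150 and 1.19, a difference of 1.18, whereas its other probe set had 0.28 and 0.14.

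Other membrane-arm subunits gave smaller increases. Ndufb3 had 0.14 and 1.07, Ndufb7 had 0.59 and 1.28, and Ndufa13, also known as a cell death regulator under the name GRIM-19, had 0.15 and 1.06. Lower by more than 1 were Ndufv3, at 1.89 and 0.62, and Ndufs5, at 1.64 and 0.52, each with 1 probe set. Ndufa4l2, a relative of Ndufa4 induced by low oxygen, had 1.19 and 0.28. The 4 accessory genes equal at their chosen probe sets were Ndufa8, Ndufa12, Ndufb1 and Ndufc1. Other probe sets of Ndufa12 differed by -1.01 to 0.43, and the other one of Ndufc1 by 0.33. Apart from Ndufb2, the remaining accessory genes ranged from -0.62 (Ndufa2) to 0.49 (Ndufb9).

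Ndufb2 is the member that the study placed among its selected mediators of cell death from this screen, so it is no independent evidence of direction. At the probe set of highest mean it had 0.78 and 1.69, a difference of 0.913. The probe sets for its reference transcript gave 0.92 on both arrays in one case and 0.55 and 1.08 in the other. A further probe set, which the annotation assigns to both Ndufb2 and Adck2, had -0.0301 and 0.98 and named no gene here. All of these lay at the common low level, and the same difference of 0.913 was found for Atp5c1 and Ndufa13.

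The complex I assembly factors, which build the complex without staying in it, had no large difference. Of the 8 Ndufaf genes, 6 were higher and 2 lower, at a median of 0.31, and 7 of the 8 differed by less than 1. Ndufaf1, needed for an early membrane intermediate, had 0.57 and 1.59. Ndufaf3 had 0.49 and 1.17, and the brightest, Ndufaf4, had 2.58 and 2.44. The lowest difference was that of Ndufaf7, a methyltransferase, at 1.67 and 1.28.

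Complex II, succinate dehydrogenase, also an enzyme of the citric acid cycle, had no member past 1 in either direction at the chosen probe sets. Sdha, the flavin subunit that oxidizes succinate, had 1.35 and 1.60, and Sdhb, the iron-sulfur subunit, had 0.61 and 0.42. The membrane anchors Sdhc and Sdhd had 1.24 and 1.10, and 2.52 and 2.81. At those probe sets the differences ranged from -0.19 to 0.29, while another probe set of Sdhc differed by -0.75 and another of Sdhd by 0.52, and the other probe sets of Sdha were all lower, by up to -0.25.

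Complex III, which transfers electrons from coenzyme Q to cytochrome c, had 5 of 9 genes lower, 3 higher and 1 equal, with a median difference of -0.39. Uqcrb, a small subunit at the coenzyme Q site, had 4.43 and 0.32, a difference of -4.11. Uqcrc2, a core protein on the matrix side, had 2.66 and 0.78, a difference of -1.89. Its partner Uqcrc1 had 1.10 and 0.36, and Uqcrh, the hinge protein that contacts cytochrome c1, had 1.54 and 0.62, while the other probe set of Uqcrh was higher by 0.23. Uqcrfs1, the Rieske iron-sulfur protein, had 0.14 and 1.07, and Cyc1, cytochrome c1, had 0.60 on both arrays. Uqcr10, Uqcr11 and Uqcrq differed by -0.39, 0.25 and 0.33.

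In complex V no member was past 2.5 in either direction. The count was 11 higher and 6 lower of 17, at a median of 0.25. The c-ring, whose rotation drives ATP synthesis, is encoded by a set of genes that yield the same mature protein and differ in their leader sequences. These genes parted: Atp5g1 had 1.63 and 0.25, a difference of -1.38, and Atp5g3 had 1.24 and 2.72, a difference of 1.48. Atp5g2 had 1.003 and 1.26 at its probe set of highest mean, with differences from -0.75 to 0.43 over 3 probe sets.

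The subunits of the catalytic head gave no common direction. Atp5a1 and Atp5b, the alpha and beta subunits, had 0.95 and 1.21, and 1.26 and 0.77. Atp5c1, the gamma subunit of the central shaft, had 1.17 and 2.09, but its other probe set had 1.37 and 0.54. Atp5d and Atp5e, the delta and epsilon subunits, had 0.95 and 0.20, and 0.73 and 0.41. Of these 5, 2 were higher and 3 lower, at a median of -0.32. In the stalk and membrane part, Atp5o, the subunit that confers sensitivity to oligomycin, had 3.38 and 4.16 and was the second brightest member in the survivors. The other probe set of Atp5o had 0.52 on both arrays. Atp5pb, the stalk subunit b, had 1.43 and 0.72, with a like value at its other probe set. Atp5h, the stalk subunit d, had 0.62 and 1.05, whereas its other probe set had 1.53 and -0.28, so that it spanned both directions. The remaining members of the stalk and membrane part, Atp5j, Atp5j2, Atp5k, Atp5l, Atp5md and Atp5mpl, ranged from -0.14 to 0.68.

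**Figure D2:**
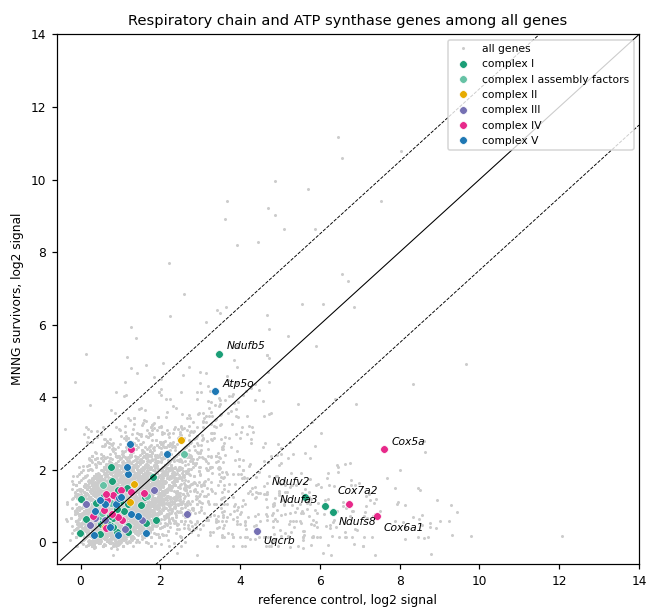
Log2 signal in the MNNG survivors (vertical axis) against the reference control (horizontal axis), 1 array each. Grey points are all 18193 genes at 1 probe set each and colored points the 91 members by complex; the solid line marks equal signals and dashed lines a difference of 2.5. The 7 large decreases lie along the bottom with other genes that were bright only in the reference control.

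Genes selected for a high signal on the reference control array had mostly to be lower on the other, where few genes were bright. Above 5 in the reference control were 6 members (6.59%, against 1.10% of all genes), and 6 of these 6 were lower by more than 2.5. Over all genes above 5 in the reference control, 90.0% (181 of 201) were lower by as much, so nothing is read from the count among the members. The median difference of the bright members was -5.31, and that of all bright genes -5.21. Signals above 2 were also more frequent among the members than among all genes, on both arrays: 14.3% against 6.61% in the reference control and 10.99% against 5.19% in the survivors. No member was above 5 on both arrays. Those above 3 on both were Ndufb5 and Atp5o, each at its chosen probe set alone. Their differences there came to 3.59 and 2.64 after quantile normalization.

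On the linear scale the 7 genes made up 78.2% of the summed signal of the members on the reference control array and 6.66% on that of the survivors. These shares describe how much of the summed signal the 7 carried and follow in part from choosing them by their decrease. Of the 91 members, 74 (81.3%) had signals at or below 2 on both arrays, against 90.6% of all genes. Among these 74 members, 36 were higher (48.6%), 31 lower (41.9%) and 7 equal. Over all genes at or below 2 on both arrays, 43.9% were higher and 36.3% lower.

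The deposited values came in steps, mostly at that low level. Of the 91 members, 74 (81.3%) had the same pair of values, to the 6 decimals deposited, as at least 1 other probe set on the arrays, against 91.3% of all 45037 probe sets. These shares are not like for like. Members stand at their probe set of highest mean, whereas the share over all covers every probe set. The pair of Ndufb1, 0.57 on both arrays, was shared with 843 other probe sets, and that of Cyc1 with 618. Uqcrfs1 and Ndufb3 shared their pair with 133 other probe sets each, among them the chosen one of the other gene. Differences also repeated between genes, since Ndufs3, Uqcrc1 and Atp5d all had -0.747. Over the 91 members there were 50 distinct differences. None of the 7 members past 2.5 shared its pair of values with another probe set, against 68 of the 74 with a difference of up to 1. Of the 17 members past 1, 6 shared their pair. Among them was Ndufb5, whose pair of 3.47 and 5.19 was also that of 1 other probe set. No share over all genes was taken at these sizes of difference.

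Probe sets of 1 gene often disagreed. The 91 genes had 180 probe sets, and 51 genes had more than 1. Of these 51, 20 (39.2%) had differences of both signs, against 47.7% of all genes with several probe sets. For 12 members (23.5%) every probe set was lower in the survivors and for 8 (15.7%) every one was higher, against 8.93% and 12.9% of all such genes. Those lower throughout were Atp5d, Atp5g1, Atp5pb, Cox6a1, Ndufa3, Ndufaf4, Ndufb11, Ndufs4, Sdhc, Uqcr10, Uqcrb and Uqcrc2. Ndufs4, a subunit often mutated in mitochondrial disease, had 4 probe sets with differences from -0.62 to -0.14. Those higher throughout were Cox6a2, Cox6b1, Ndufa5, Ndufa10, Ndufb5, Ndufb7, Ndufs7 and Sdhd.

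**Figure D3:**
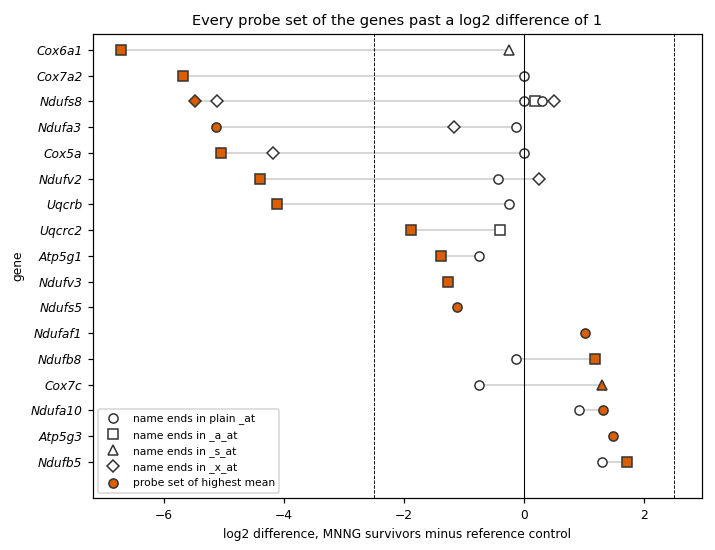
Log2 difference, survivors minus reference control (horizontal axis), at every probe set of the 17 genes past a difference of 1 (vertical axis). Orange symbols are the probe sets of highest mean, shapes give the ending of the probe set's name and dashed lines mark 2.5; each of the 7 genes with a large decrease also has a probe set with a difference above -1, and Ndufb5 and Ndufa10 were higher at both of theirs on this scale. Over all genes, 284 of 292 with several probe sets and such a decrease also had a probe set above -1.

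Each of the 7 large decreases was absent from at least 1 other probe set of the gene. The same held for most genes with several probe sets and a decrease past 2.5. Of these 292 genes, 284 also had a probe set not lower by 1. For Cox5a, 2 of 3 probe sets were bright in the reference control, the second with 4.42 and 0.24, while the third had 0.74 on both arrays. Ndufs8 also had 2 bright probe sets, the second with 5.75 and 0.64, and differences from 0.00 to 0.49 at its other 4. Ndufa3 had a second probe set at 3.53 and 2.37 and a last one at 1.34 and 1.20. The only other probe sets of Cox6a1, Cox7a2 and Uqcrb differed by -0.25, 0.00 and -0.25, and the other ones of Ndufv2 by 0.25 and -0.43. A second probe set with a decrease of more than 2.5 was thus found for 2 of the 7 members, against 29 of the 292 genes with several probe sets and a decrease of that size.

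Probe sets whose names end in _a_at, _s_at or _x_at match several transcripts, of the same gene or, in part, of other genes. Of the 9 member probe sets lower by more than 2.5, 5 ended in _a_at (55.6%), 3 in _x_at (33.3%) and 1 in plain _at (11.1%). Among all 362 probe sets with 1 symbol lower by as much, the shares were 22.1%, 36.7% and 31.5%. The member probe sets in _x_at were both bright ones of Ndufs8 and the second bright one of Cox5a. The second probe sets with a large decrease were thus all of this kind. Members had more _a_at and _x_at probe sets than genes at large, with 21.7% against 11.7% for _a_at and 16.1% against 5.83% for _x_at. With plain _at probe sets alone, a setting chosen after the data were seen, 1 of 73 members (Ndufa3) was lower by more than 2.5, or 1.37% against 0.675% of all genes. The choice of probe set weighed on the count: it was 3 of 91 (3.30%, against 0.335% of all genes) when the probe sets of each gene were summarized by their median, namely Cox5a, Cox6a1 and Cox7a2, and 0 when the dimmest probe set stood for each gene (0.143% of all genes). Matches of these probe sets to other transcripts, such as pseudogenes, were not tested.

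The proteins around the respiratory chain were read from lists of other genes of oxidative metabolism. Over 12 lists, 107 genes were measured, of which 43 were higher, 47 lower and 17 equal, with a median difference of 0.00. Lower by more than 2.5 were 3 (2.80%) and higher by as much was 1 (0.935%). The 3 were Slc25a5, the ADP/ATP carrier ANT2, with 6.42 and 0.43, Coq10a, a coenzyme Q binding protein, with 6.63 and 0.27, and Cycs, cytochrome c, with 5.31 and 1.02. Like the bright subunits, they had other probe sets with differences up to 0.00, 0.33 and 0.29. For Slc25a5, another of its 8 probe sets had a decrease as large, at -6.27. Coa6, a copper-handling assembly factor of complex IV read by a single probe set, was the gene with a large increase, at 0.23 and 3.79.

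The assembly lists gave no common direction. Outside the Ndufaf genes, 4 of 8 complex I assembly factors were higher and 3 lower, with a median difference of 0.0879. For complex II factors the counts were 2 higher and 2 lower of 4, with Sdhaf1 at 0.62 and 2.03, and for complex III factors 2 higher and 3 lower of 6. Among 17 complex IV assembly factors 7 were higher and 9 lower, at a median of -0.14. Of 4 ATP synthase assembly factors, 3 were equal and 1 was lower.

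Lists of supply, transport and defence were similar. In the citric acid cycle, 5 of 13 genes were higher and 6 lower, and none passed 1. Coenzyme Q synthesis had 5 higher and 5 lower of 12, and other electron donors to coenzyme Q had 5 higher and 2 lower of 8, with Prodh at 0.11 and 1.62. Mitochondrial DNA replication and transcription had 6 higher and 4 lower of 13, with a highest difference of 1.30. Defence against superoxide and peroxide had 3 higher and 3 lower of 7, with a lowest difference of -1.60. Among carriers and porins 2 of 10 were higher and 6 lower, with 2 lower by more than 1. Vdac1, the main porin of the outer membrane, was bright on both arrays at 4.16. In the list of cytochrome c and AIF, 2 of 5 were higher and 3 lower. Aifm1, the flavoprotein AIF that helps form respiratory complexes and moves to the nucleus in PARP1-dependent death, had 0.89 and 0.57, and its import partner Chchd4 had 1.11 and 0.62.

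**Figure D4:**
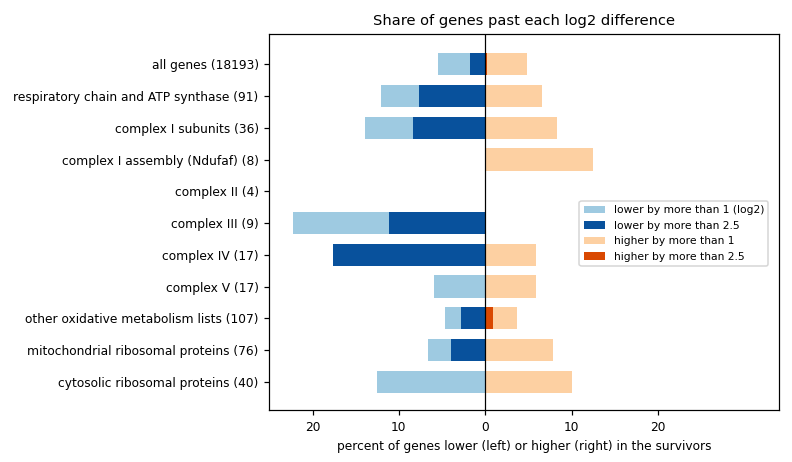
Percent of genes lower (left) or higher (right) in the survivors by more than 1 (pale bars) or 2.5 (dark bars, included in the pale ones) on the log2 scale, for all genes, the 91 members, each complex and the comparison lists, with the number of genes in brackets. Of the complexes, IV, III and I hold decreases past 2.5, and II and V hold none.

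Ribosomal proteins served as other large sets of abundant housekeeping subunits. Of 76 mitochondrial ribosomal protein genes, 3 (3.95%) were lower by more than 2.5 and 0 were above 5 in the reference control, and of 40 cytosolic ones 0 were lower by as much. The median difference was 0.00 in both lists. Lower by more than 1 were 6.58% of the mitochondrial and 12.5% of the cytosolic genes, against 12.1% of the members. Signals above 2 were found for 11.8% of the mitochondrial genes on each array, and for 12.5% and 15% of the cytosolic ones. Among the members these shares were 14.3% and 10.99%. Differences between the shares of these lists and those of the members, 7.69% for decreases past 2.5, were not tested. As a check of what the signal reads, 25 cell type markers were examined. Nes and Sox2, which mark neural stem cells, had 0.67 and 0.96, and 1.15 and 1.33, near the common level. The 10 neural stem cell markers differed by -1.89 to 1.23, with 6 higher and 4 lower. Decreases past 2.5 were found for 2 of the 25 markers (8.0%, against 1.73% of all genes). These were Mbp, a myelin protein, at 7.34 and 0.74, and Csf1r, a microglial receptor, at 6.35 and 0.61. Over their 8 and 3 probe sets the differences reached up to 0.48 and -0.19.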

How the data were processed

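Library inserts were amplified by PCR with biotin and hybridized to 1 Affymetrix array per condition (2 arrays, 1 reference control and 1 MNNG survivors). The sample labels name genomic DNA as the template but also describe a total RNA protocol, and the paper's methods name cDNA from total RNA. Which template was used is not known. The values deposited by the authors are log2 signals, 1 per probe set. RMA is named in the submitters' processing notes, without a version or program.

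Control probe sets (64) were left out, which left 45037. Gene names came from the array annotation, and for 34741 of 34945 probe sets with 1 symbol the symbol was looked up by gene ID in assembly GRCm38.p6, used for names only; 0 member symbols changed. Where a probe set carried more than 1 symbol it was assigned to none, which affected 10 that hold a member. Differences were survivors minus reference control. Counts past 1 and 2.5 were descriptive, because 1 array per condition allows no test and sets the precision. The study's quantile normalization and ANOVA were not repeated as the main analysis. Genes named were Ndufb2, members past 1, members above 5 on an array, catalytic core subunits, subunits with tissue forms and up to 4 members per complex and direction; further members and genes were named after their values were seen. Members and lists were chosen with earlier results of these data known. Alternatives were median centering, quantile normalization, loess (fraction 0.3), a floor at percentile 25, centering on hybridization controls, other choices of probe set and of symbols, and structural subunits alone. The choice of probe set per gene and the counts past 2.5 were checked on simulated arrays. All probe sets of a changed gene were shifted together there. The check therefore covered neither disagreement between probe sets nor the alternatives. Python 3.11.15, numpy 2.4.6, pandas 2.3.3 and statsmodels 0.14.6 were used. Coordinates were left out because the annotation states no build.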

Additional observations from a re-analysis of the deposited data

How the results depend on the processing

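The median difference of 0.00 became -2.77 with the arrays centered on their hybridization controls (all genes -2.77), 0.23 with each gene at its highest MNNG value, -0.14 at its highest reference control value and 0.18 with plain _at probe sets alone. The 11 members lower by more than 1 became 91, 7 and 4 under the first, second and last of these and 3 when the lowest mean chose the probe set. The 6 members higher by more than 1 became 0 with the hybridization controls and 3 at the lowest mean. The 7 members lower by more than 2.5 became 56 with the hybridization controls (67.3% of all genes), 3 at the highest MNNG value and 3 with the median over probe sets, in both cases Cox5a, Cox6a1 and Cox7a2, 1 with plain _at probe sets (chosen after the data were seen) and 0 at the lowest mean. The 0 members higher by more than 2.5 became 2 after quantile normalization (Ndufb5 at 3.59, Atp5o at 2.64) and 1 after loess (Ndufb5 at 3.62). Counts and medians under the other alternatives stayed within 1.5 times the count or 0.1 of the median.

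Centering on the hybridization controls turned Atp5g3 to -1.28, Cox7c to -1.46, Ndufa10 to -1.46, Ndufaf1 to -1.75, Ndufb5 to -1.05 and Ndufb8 to -1.59. Other probe sets turned Ndufs8 to 0.49 (highest MNNG value), 0.29 (lowest mean) and 0.0879 (median), Ndufv2 to 0.25 (highest MNNG value), Ndufb8 to -0.14 (highest reference control value, lowest mean and plain _at) and Cox7c to -0.75 (lowest mean, without _x_at and _s_at, and plain _at). The causes were not tested. No paired analysis was possible because each condition has 1 array.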
